A study of Mus musculus with 6 samples.

Results

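The suppressors of cytokine signalling (SOCS) and 2 protein tyrosine phosphatases were followed in lung RNA as a set of 10 genes: Socs1 to Socs7 and Cish, which make up the SOCS family, and Ptpn2 and Ptpn6. They were taken by gene identity from the 35275 gene rows of the count tables, and all 10 were among the 15191 genes with enough reads to be tested. Balb/c mice had received 250000 4T1 cells, a mouse mammary carcinoma line of the same strain, by tail vein, and their lungs were perfused with 20 mL of PBS and taken 7 days later. In 1 group the injected cells were 4T1 cells with PD-L1 knocked out (KO, 3 libraries), and in the other they were unmodified 4T1 cells (WT, 3 libraries). The labels describe no edit in the host mice, so KO and WT name the injected cells, and they do not say whether the KO cells were a single clone. An effect of PD-L1 cannot be told apart from any other difference between the 2 cell lines or from a difference in tumour load.

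Cytokines that bind receptors without a kinase of their own signal through JAK kinases, which phosphorylate the receptor and the STAT transcription factors. SOCS proteins are brakes on this route: STAT factors induce several SOCS genes, and the proteins bind phosphorylated receptors or JAKs and, through their SOCS box, recruit a ubiquitin ligase. SOCS1 acts mainly on interferon signals, SOCS3 on signals through the gp130 receptor chain and the G-CSF receptor, and CIS (from Cish) and SOCS2 on STAT5-activating cytokines and growth hormone. The phosphatases reverse the phosphorylation itself: PTPN2 (TC-PTP) acts on JAKs and STATs, and PTPN6 (SHP-1), found mainly in blood cells, is recruited by inhibitory receptors.

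Of the 10 genes, 2 rose in KO lungs, Ptpn6 and Socs1, and 0 fell (edgeR quasi-likelihood test, Benjamini-Hochberg adjusted p under 0.05 over all genes tested). Over all genes, 1.12% were called higher and 0.336% lower. No member was lower at an unadjusted p under 0.05 (0 of 10), nor called lower by DESeq2 (0) or limma-voom (0). In the same 2 genes every KO library exceeded every WT library, which was so for 10.3% of all genes, and in 0 members was every KO library below (9.4% of all genes; 19.7% in either direction). The median log2 fold change of the 10 was 0.09, beside 0.01 over all genes tested.

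**Figure D1:**
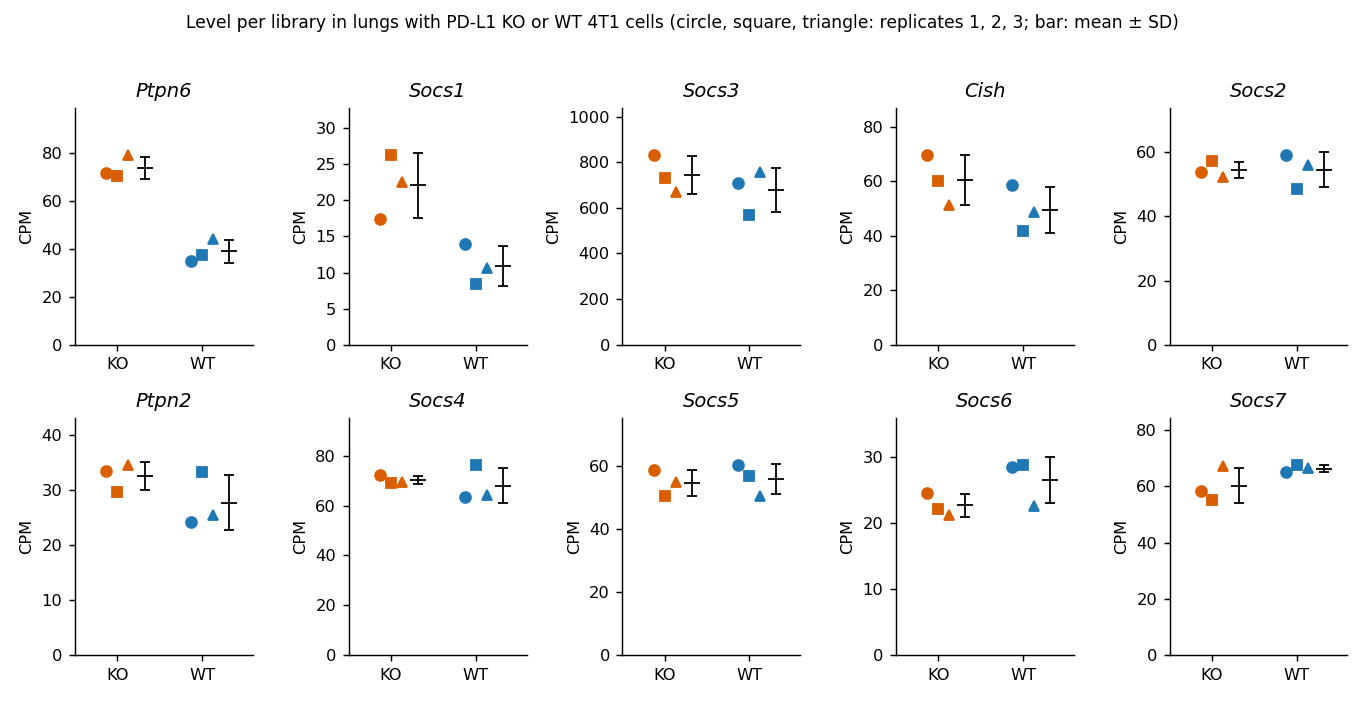
Level of each gene in CPM (counts scaled to a common library size; linear axes from 0) in the 3 KO and 3 WT libraries. Points are libraries and bars are the mean ± SD. In Ptpn6 and Socs1 the KO points lie above the WT points, and in the other 8 genes the groups overlap.

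Libraries held 15222408 to 16469780 counts in KO lungs and 14711459 to 16932114 counts in WT lungs. Levels are given as CPM, counts scaled to a common library size with TMM factors, and 3 counts, the limit that a count of 0 allows, stand for 0.176 to 0.206 CPM (counting error only). Cd274, which encodes PD-L1, had 1514, 3013 and 4929 counts in KO libraries and 910, 912 and 1132 counts in WT libraries. It did not pass (edgeR adjusted p = 0.161), and since host lung cells carry the gene too, its level in whole lung does not check the labels. Lung identity was plain in every library: the 6 epithelial markers, among them surfactant genes, summed to 11710 to 14960 CPM in KO and 11508 to 12527 CPM in WT lungs. The sum does not show single markers: 0 of the 6 passed by edgeR, but 1 was higher at an unadjusted p under 0.05. DESeq2 and limma-voom each called 1 higher. Of 5 tested markers listed for the tumour cells, Krt5, Krt8, Krt18, Epcam and Spp1, which other lung cells express too, 0 were called by edgeR (0 at an unadjusted p under 0.05, 0 by DESeq2 and 0 by limma-voom).

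Ptpn6 (ENSMUSG00000004266, GRCm38 chromosome 6, 124720707 to 124738714, minus strand) was at 71.4, 70.4 and 78.9 CPM in KO libraries and at 34.8, 37.5 and 44.0 CPM in WT libraries. The KO libraries lay close together and well above the highest WT library. The fold was 1.90 (95% confidence interval 1.56 to 2.30), or 0.92 ± 0.13 (SE) on the log2 scale, with an adjusted p of 0.00487 from edgeR, and Ptpn6 ranked 16 of all genes by p. With each library left out in turn, Ptpn6 was called all 6 times, with edgeR adjusted p between 0.00174 and 0.0422.

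Ptpn6 is a gene of blood cells, and in whole-lung RNA more such cells and more RNA per cell cannot be told apart. All 14 pan-leukocyte genes had positive log2 differences (median 0.43), and 4 of them rose: Vav1, Cd52, Coro1a and Cd53 (6, 0, 1, 0, 0 and 3 without KO replicates 1, 2 and 3 and WT replicates 1, 2 and 3 in turn). Those 14 genes summed to 2619, 3431 and 3343 CPM in KO libraries and 2072, 2579 and 2664 CPM in WT libraries, where the groups overlapped, and none of the 14 was at 0. Their mean log2 CPM, in which each gene weighs the same, was 6.99, 7.35 and 7.37 in KO and 6.61, 6.82 and 6.87 in WT libraries, a difference of 0.47 without overlap (exact permutation test, two-sided p = 0.1, the smallest that 3 against 3 allows). Set against this mean in the same library, Ptpn6 stood at −0.83, −1.21 and −1.07 in KO and −1.49, −1.59 and −1.41 in WT libraries. The groups did not overlap, and the difference was 0.46 on the log2 scale (exact permutation test, p = 0.1). Lack of overlap on this measure was not particular to Ptpn6. Socs2 and Socs7, which did not pass by edgeR, were lower in KO without overlap (differences −0.47 and −0.61, exact permutation test, p = 0.1 each). The mean subtracted was itself 0.47 higher in KO, so an unchanged gene comes out lower by that amount. Without it, the log2 fold changes of Socs2 and Socs7 were −0.0020 and −0.14. The share of all genes without overlap on this measure was not computed. In the remaining members the groups overlapped. The p-values were not adjusted over the members. The mean hides a spread: the log2 differences of the 14 genes ran from 0.17 to 1.01, a range that includes the 0.92 of Ptpn6. That measure was chosen after the data had been seen.

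**Figure D2:**
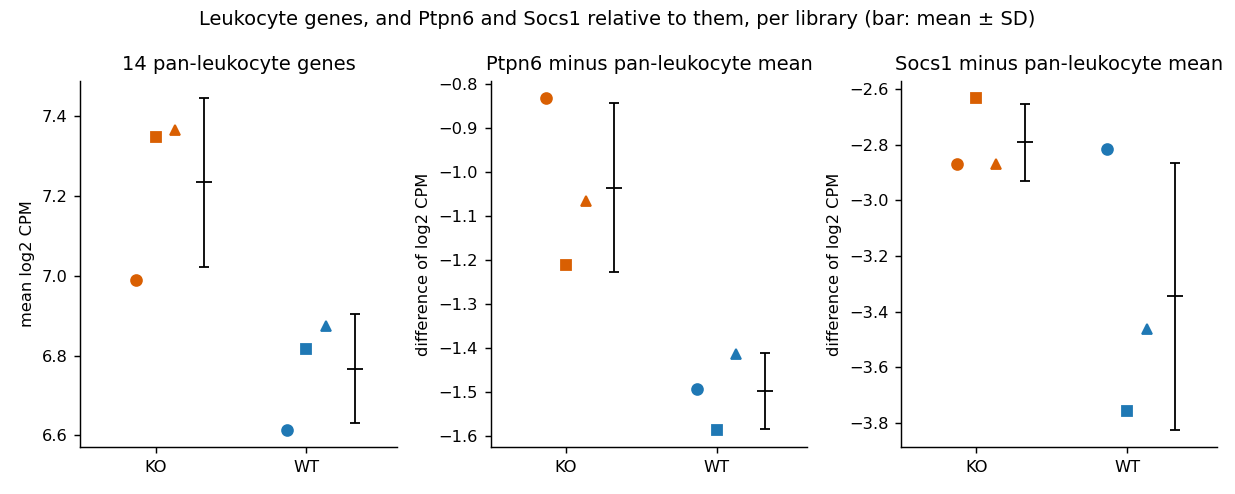
Mean log2 CPM of 14 pan-leukocyte genes (left), and log2 CPM of Ptpn6 (middle) and Socs1 (right) minus that mean, per library (points; bars are mean ± SD; axes do not start at 0). The mean itself is higher in KO (6.99 to 7.37) than in WT (6.61 to 6.87). Ptpn6 relative to it lies higher in KO (−1.21 to −0.83) than in WT (−1.59 to −1.41), and for Socs1 WT replicate 1 (−2.82) lies among the KO values.

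Among lists of narrower cell types, 3 of 8 monocyte and macrophage markers rose (Ly6c2, Fcgr1 and Ccr2, median log2 difference 0.73), and so did 2 of 6 tested neutrophil markers (S100a8 and S100a9, median 0.54). The neutrophil markers summed to 325 to 499 CPM in KO and 167 to 280 CPM in WT lungs. The sum leans on the called genes, with S100a9 at 207 CPM in KO and 96.6 CPM in WT lungs. Cxcr2, Mmp9, Retnlg and Csf3r overlapped between groups (edgeR adjusted p between 0.443 and 0.636). Ly6g, too low to test, had 4, 14 and 26 counts in KO and 0 in each WT library. The monocyte and macrophage markers summed to 535 to 734 CPM in KO and 410 to 565 CPM in WT lungs. Of 7 T cell, 5 B cell and 5 NK cell markers, 0 passed by edgeR. At an unadjusted p under 0.05, 3, 3 and 0 differed, all higher (14.6% of all genes in either direction). DESeq2 called 2, 1 and 0, and limma-voom 0 in each. In the same leave-out order, 4, 1, 1, 1, 1 and 4 monocyte and macrophage markers and 2, 0, 0, 0, 0 and 2 neutrophil markers rose. Of 4 platelet markers, 1 fell by edgeR (Ppbp), and the median log2 difference was −1.87. All 4 were lower at an unadjusted p under 0.05, with every KO library below every WT library (9.4% of all genes). Some were scarce, which limits the size of the difference: Gp9 was at 0.570 CPM in KO and 2.90 CPM in WT lungs, and Ppbp at 2.57 and 17.9 CPM (KO and WT). DESeq2 called all 4 platelet markers lower, limma-voom 1 and the replicate block 3, and edgeR called 2, 1, 1, 1, 1 and 1 in the same leave-out order. Of 5 endothelial markers, 1 fell (Vwf; 1, 0, 1, 0, 0 and 1 in the leave-outs), as did 1 of 4 smooth muscle and fibroblast markers (Pdgfrb; 1, 0, 0, 0, 0 and 2). The part of any of these cells in the level of Ptpn6 was not tested.

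Inhibitory receptors bring PTPN6 to the membrane. Of 16 such receptor genes, 2 rose: Cd72, a B cell receptor, was at 16.3 ± 2.45 CPM in KO and 5.72 ± 1.83 CPM in WT lungs (SD, n = 3 each), and Lair1, a collagen receptor of leukocytes, was at 24.4 ± 5.67 and 11.6 ± 3.0 CPM (KO and WT). Clec12a, a myeloid lectin, was at 22.6 ± 6.58 CPM in KO and 12.4 ± 2.13 CPM in WT lungs and did not pass (edgeR adjusted p = 0.0917). Positive differences were seen in 15 of the 16, with a median log2 difference of 0.55. Without KO replicates 1, 2 and 3 and WT replicates 1, 2 and 3 in turn, 3, 0, 0, 0, 0 and 2 of the receptors rose. DESeq2 called 3, limma-voom 2 and edgeR with no low-count filter 4.

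Socs1 (ENSMUSG00000038037, chromosome 16, 10782240 to 10785536, minus strand) was at 17.4, 26.3 and 22.6 CPM in KO libraries and 13.9, 8.34 and 10.6 CPM in WT libraries. The lowest KO library, replicate 1, lay near the highest WT library, also replicate 1. The fold was 2.02 (95% confidence interval 1.43 to 2.85), or 1.01 ± 0.23 (SE) on the log2 scale, and the adjusted p from edgeR was 0.0472. This call sat at the threshold: it was lost without KO replicate 2 or 3 (adjusted p = 0.249 and 0.156) and without WT replicate 1, 2 or 3 (0.0855, 0.187 and 0.0867). It was kept without KO replicate 1 (edgeR adjusted p = 0.0154). Limma-voom (adjusted p = 0.0505) and upper-quartile scaling in edgeR (0.05005) also left it just outside, while DESeq2 called it (0.00606). Relative to the 14 pan-leukocyte genes, Socs1 stood at −2.87, −2.63 and −2.87 in KO and −2.82, −3.76 and −3.46 in WT libraries. The difference was 0.55 on the log2 scale, and the groups overlapped through WT replicate 1 (exact permutation test, p = 0.3).

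The genes whose profile over the 6 libraries came closest to that of Socs1 were H2-DMa, a chaperone of MHC class II loading, Irf1 and Cmpk2, an interferon-induced nucleotide kinase. Their root-mean-square distances from Socs1 were 0.10, 0.168 and 0.168 log2 units, among 10369 genes searched. For Ptpn6 they were Ltb, which encodes lymphotoxin beta, Cox5a, a subunit of the respiratory chain, and Cmtm7, at 0.0408, 0.0698 and 0.0916 log2 units. Irf1, a transcription factor that activates interferon-induced genes, was at 445, 551 and 527 CPM in KO and 280, 218 and 311 CPM in WT libraries. All KO values were above the WT values. H2-DMa was at 67.7 ± 13 CPM in KO and 35.3 ± 6.41 CPM in WT lungs, and Ltb at 37.9 ± 3.48 and 19.3 ± 2.75 CPM (KO and WT; SD, n = 3 each). These distances describe the profiles and include the difference between the groups. That the genes found near Socs1 and Ptpn6 were higher in KO lungs therefore follows from the search itself.

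The sequence before the start site is shown for both genes that rose and for Socs3 and Cish, which did not pass, because STAT factors and interferon factors bind short motifs there. Promoters came from RefSeq (GRCm38.p6), which matched 5 of the 10 members (Socs1, Socs3, Socs4, Cish and Ptpn6), and not Socs2, Socs5, Socs6, Socs7 or Ptpn2. Searched were the STAT motif (GAS) TTCNNNGAA, a palindrome, and the interferon-stimulated response element (ISRE) on both strands (GAAA, any 2 bases, GAAA), in 300 bases from 250 before to 50 after the start, and capitals mark matches. The windows printed, 5′ to 3′ on the strand of the gene, are chr16:10785537-10785786 (Socs1, minus), chr6:124738710-124738959 (Ptpn6, minus), chr11:117969367-117969616 (Socs3, minus) and chr9:107296409-107296678 (Cish, plus).
Socs1: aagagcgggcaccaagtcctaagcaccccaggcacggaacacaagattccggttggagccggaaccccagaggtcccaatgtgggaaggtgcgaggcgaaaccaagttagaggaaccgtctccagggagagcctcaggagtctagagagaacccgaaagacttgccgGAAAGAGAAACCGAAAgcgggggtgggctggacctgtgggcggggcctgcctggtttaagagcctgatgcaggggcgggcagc
Ptpn6: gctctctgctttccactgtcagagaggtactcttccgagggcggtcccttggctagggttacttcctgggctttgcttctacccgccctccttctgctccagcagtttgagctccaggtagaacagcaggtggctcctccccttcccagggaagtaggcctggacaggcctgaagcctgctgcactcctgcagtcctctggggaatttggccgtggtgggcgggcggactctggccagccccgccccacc
Socs3: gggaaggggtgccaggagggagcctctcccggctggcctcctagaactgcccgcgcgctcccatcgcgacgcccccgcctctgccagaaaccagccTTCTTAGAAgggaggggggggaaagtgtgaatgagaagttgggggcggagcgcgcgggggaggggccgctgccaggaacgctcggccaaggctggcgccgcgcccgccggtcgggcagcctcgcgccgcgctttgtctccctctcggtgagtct
Cish: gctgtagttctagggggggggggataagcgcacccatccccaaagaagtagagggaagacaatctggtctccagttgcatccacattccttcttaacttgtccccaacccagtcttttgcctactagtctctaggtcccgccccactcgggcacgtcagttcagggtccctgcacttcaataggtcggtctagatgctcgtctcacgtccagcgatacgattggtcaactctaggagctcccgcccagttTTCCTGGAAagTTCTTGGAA

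Socs1 held 2 overlapping ISRE matches, GAAAGAGAAA and GAAACCGAAA, beginning 83 and 77 bases before the start, and no GAS match. Of all 32851 promoters of this length, 3.44% held the ISRE letters. Socs3 held 1 GAS match, TTCTTAGAA, beginning 154 bases before the start, and Cish held 2, TTCCTGGAA and TTCTTGGAA, beginning at bases 1 and 12 of the RefSeq transcript. GENCODE also lists transcripts of Socs3 and Cish that start further upstream. GAS letters were in 8.30% of all promoters and at least 2 matches in 0.457%. Neither motif was found in the windows of Ptpn6 and Socs4. The Ptpn6 window lies at the upstream end of the annotated gene, so any start further downstream was not searched. Which start the lung or blood cells used was not tested. A match is a run of letters and no measure of binding, and the 4 sequences are those of the reference strain, not of Balb/c.

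Socs3 (chromosome 11, 117966079 to 117970047, minus strand) was at 831, 732 and 670 CPM in KO libraries and 709, 570.0 and 758 CPM in WT libraries. The groups overlapped. The fold was 1.10 with a 95% confidence interval of 0.908 to 1.32, and the gene did not pass (edgeR adjusted p = 0.694). Its expression was far above that of the other members. Per length, with all annotated exons merged, Socs3 was at 257 ± 28.2 RPKM (CPM per kilobase of exon) in KO and 235 ± 33.8 RPKM in WT lungs. It made up 83.2% ± 1.34 of the summed level of the 8 SOCS genes in KO and 83.1% ± 2.10 in WT lungs (SD, n = 3 each; exact permutation test, p = 1). The share of Socs1 was 1.76%, 2.96% and 2.74% in KO and 1.62%, 1.18% and 1.19% in WT libraries, without overlap (exact permutation test, p = 0.1, the smallest possible; adjusted p = 0.48 over the 8 shares). The family as a whole summed to 309 ± 28.8 RPKM in KO and 282 ± 34.2 RPKM in WT lungs (exact permutation test, p = 0.5).

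The ratio of Socs1 to Socs3 reads within a library was 0.0209, 0.0359 and 0.0337 in KO and 0.0196, 0.0146 and 0.0140 in WT libraries. These did not overlap, by a small margin between the replicates numbered 1. Of the 3 ratios tested, that of Ptpn6 to Ptpn2 was 2.13, 2.38 and 2.29 in KO and 1.44, 1.13 and 1.73 in WT libraries, also without overlap. That of Cish to Socs2 was 1.29, 1.05 and 0.981 in KO and 0.990, 0.855 and 0.867 in WT libraries, where 1 KO library fell among the WT libraries. Exact permutation tests gave p = 0.1, 0.1 and 0.2 for these ratios (adjusted p = 0.15, 0.15 and 0.2), where 0.1 is the smallest possible. The ratios were chosen after the data had been seen. Socs1 and Ptpn6 alone already set the groups apart, so their ratios are no separate evidence for their rise.

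**Figure D3:**
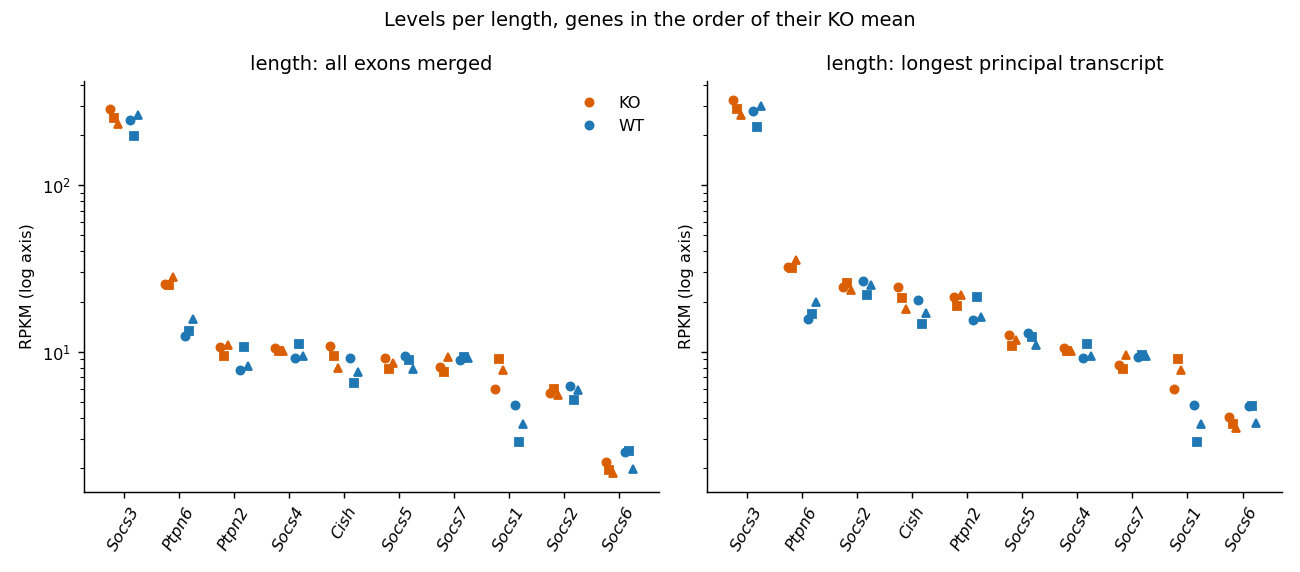
Level per length (RPKM, log axis) of each gene in KO and WT libraries (circle, square and triangle for replicates 1, 2 and 3), with genes in the order of their KO mean, for all exons merged (left) and for the longest principal transcript (right). Socs3 is highest in both panels, and Socs6 has the lowest KO mean in both.

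Among the genes other than Socs3, the order depended on the length used, because several have long alternative exons. With all exons merged, Ptpn6 came second in both groups, at 26.3 ± 1.66 RPKM in KO and 13.8 ± 1.70 RPKM in WT lungs, and Socs6 last, at 1.99 ± 0.152 and 2.34 ± 0.306 RPKM (KO and WT; SD, n = 3 each). In KO lungs the 7 genes between them, from Ptpn2 at 10.4 ± 0.833 RPKM to Socs2 at 5.72 ± 0.262 RPKM, each overlapped their neighbours in the order. In WT lungs Socs4, Socs7, Ptpn2, Socs5 and Cish overlapped in that way, and Socs2 (5.73 ± 0.564 RPKM) and Socs1 (3.77 ± 0.959 RPKM) lay below them and apart from each other. Per length of the longest principal transcript, Socs2 reached 24.5 ± 1.12 RPKM in KO and 24.6 ± 2.42 RPKM in WT lungs, the third place of the order in KO and the second in WT lungs. Socs1 was then ninth of 10 in KO lungs, and in WT lungs last, where it overlapped Socs6.

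Cish (chromosome 9, 107296026 to 107302784, plus strand), an inhibitor of STAT5-activating cytokine receptors, was at 69.6, 60.2 and 51.4 CPM in KO libraries and 58.5, 41.6 and 48.6 CPM in WT libraries. The groups overlapped, and the fold of 1.22 (95% confidence interval 0.970 to 1.53) missed the threshold (edgeR adjusted p = 0.418). Socs2 (chromosome 10, 95385362 to 95417180, minus strand), which restrains growth hormone signals, was at 52.4 to 57.3 CPM in KO and 48.7 to 59.1 CPM in WT lungs. Its fold was 0.999 (0.830 to 1.2). Profiles closest to that of Cish were those of Alg1, Mpdu1 and Hax1 (0.0371, 0.0425 and 0.0661 log2 units), and to that of Socs3 those of Stk19, Mdp1 and Fkbp1a (0.0307, 0.0362 and 0.0421). None of these 6 genes passed the test (edgeR adjusted p between 0.541 and 0.811).

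Ptpn2 (chromosome 18, 67665511 to 67724595, minus strand), a phosphatase of JAK1 and JAK3, was at 29.6 to 34.4 CPM in KO and 24.1 to 33.4 CPM in WT lungs. Its fold of 1.17 (0.922 to 1.5) did not pass (edgeR adjusted p = 0.556). Socs4 and Socs5, which are known to act on the epidermal growth factor receptor, had folds of 1.03 (0.868 to 1.23) and 0.980 (0.813 to 1.18). Socs4 (chromosome 14, 47276931 to 47296102, plus strand) ranged from 69.0 to 72.1 CPM in KO and 63.3 to 76.1 CPM in WT lungs, and Socs5 (chromosome 17, 87107679 to 87137839, plus strand) from 50.6 to 58.9 and 50.7 to 60.3 CPM (KO and WT). Socs6 (chromosome 18, 88665224 to 88927481, minus strand) and Socs7 (chromosome 11, 97362551 to 97398542, plus strand), studied mostly in insulin and receptor tyrosine kinase signalling, had folds of 0.852 (0.667 to 1.09) and 0.908 (0.761 to 1.08). Socs6 ranged from 21.2 to 24.5 CPM in KO and 22.5 to 28.7 CPM in WT lungs, and Socs7 from 55.1 to 67.1 and 65.0 to 67.4 CPM (KO and WT). In the 8 members that did not pass, the upper bound of the interval was at most 1.53, below the fold of 1.90 of Ptpn6.

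**Figure D4:**
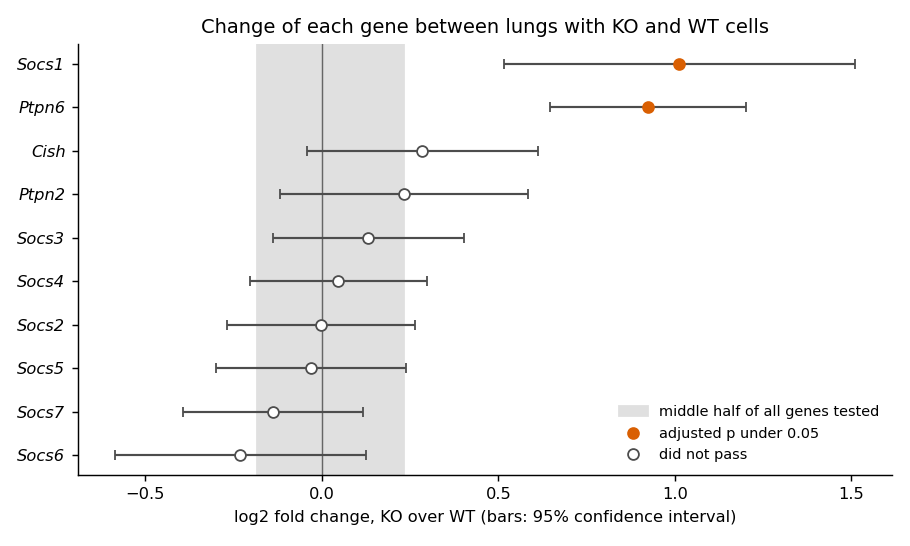
Log2 fold change of each gene, KO over WT, with its 95% confidence interval from the edgeR fit. The grey band runs from the lower to the upper quartile of all 15191 genes tested. Filled points (Socs1 and Ptpn6) passed the test, and the other 8 intervals include 0.

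Among other brakes, 1 of 15 genes rose: Usp18, an interferon-induced protease that blocks the type I interferon receptor, was at 25, 28.5 and 42.9 CPM in KO and 17.5, 12.6 and 15.7 CPM in WT libraries. Its groups did not overlap, and its log2 fold change was 1.07 ± 0.22 (SE; edgeR adjusted p = 0.0291). Of 6 leave-outs, the call held only without KO replicate 1 (adjusted p between 0.00444 and 0.138 over the 6). Dok1 and Dok2, adaptors that dampen tyrosine kinase signals in blood cells, had log2 differences of 0.46 ± 0.18 and 0.46 ± 0.21, short of the threshold (edgeR adjusted p = 0.235 and 0.333). The related phosphatases Ptpn1 and Ptpn11 had log2 differences of 0.18 ± 0.11 and −0.14 ± 0.10 (adjusted p = 0.509 and 0.543). The median of the 15 was 0.04. Of 6 genes listed as ubiquitin ligase partners of the SOCS box (Elob, Eloc, Cul2, Cul5, Rbx1 and Rnf7), 0 passed by edgeR (0 at an unadjusted p under 0.05, 0 by DESeq2, 0 by limma-voom). They are not all parts of 1 ligase. Elob, Cul5 and Rbx1 had the smallest p among them, with log2 differences of 0.25 ± 0.12, −0.19 ± 0.13 and 0.19 ± 0.15.

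Among the JAK and STAT genes on which these brakes act, Stat2, a factor of type I interferon signalling, rose. It was at 123, 144 and 168 CPM in KO and 78.4, 66.8 and 79.2 CPM in WT libraries. Its groups were well apart, with a log2 fold change of 0.95 ± 0.13 (SE; edgeR adjusted p = 0.00482), and the call held in 6 of 6 leave-outs. Jak3, the kinase of the common gamma chain, was at 81.7, 76.3 and 67.2 CPM in KO and 56.3, 59.0 and 57.4 CPM in WT libraries, without overlap, and did not pass (adjusted p = 0.135).

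Of 26 tested receptor chains 1 rose, the common gamma chain gene Il2rg, at 39.8, 45.2 and 54.9 CPM in KO and 24.0, 24.9 and 25.7 CPM in WT libraries (log2 fold change 0.91 ± 0.15, edgeR adjusted p = 0.0144). Its groups were well apart, and the median of the list was 0.09. The call held in 2 of 6 leave-outs. Lepr, the leptin receptor, and Il2ra, a chain of the interleukin-2 receptor, differed by −0.35 ± 0.10 and 0.98 ± 0.31 on the log2 scale and did not pass (edgeR adjusted p = 0.116 and 0.141). With KO replicates 1, 2 and 3 and WT replicates 1, 2 and 3 left out in turn, 3, 0, 0, 0, 0 and 1 receptor chains rose. DESeq2 called 1 higher and 1 lower, limma-voom 1 higher, and edgeR 4 higher with no low-count filter and 2 with the replicate block. Of 15 tested ligands 0 passed by edgeR, 0 by DESeq2 and 0 by limma-voom. At an unadjusted p under 0.05 by edgeR, 3 differed, all higher (14.6% of all genes in either direction). The median of 0.51 was the value of Il4, a scarce RNA at 2.07 CPM in KO and 1.45 CPM in WT lungs (SE 0.62). Il6, which signals through gp130, was at 24.3, 38.5 and 27.7 CPM in KO and 18.8, 18.8 and 21.1 CPM in WT libraries, and Lif, of the same receptor family, at 23.5 ± 3.34 and 16.4 ± 1.95 CPM (KO and WT). Neither overlapped between groups, and neither passed (edgeR adjusted p = 0.127 and 0.191). Interferon gamma RNA (Ifng) was scarce, with 12, 19 and 54 counts in KO and 0, 5 and 8 counts in WT libraries, and its adjusted p from edgeR was 0.220. Interferon beta RNA (Ifnb1) had 0 counts in each of the 6 libraries. With KO replicate 1 left out, 1 ligand passed.

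Socs3 is known as a target of STAT3 and Cish as one of STAT5, so other targets of both factors were set beside them. Of 15 STAT3 target genes, 1 rose, Lcn2, an iron-binding protein of neutrophils and epithelium, at 36.4, 60.3 and 62.4 CPM in KO and 23.9, 28.1 and 24.3 CPM in WT libraries. The groups were apart by 1.06 ± 0.19 on the log2 scale (edgeR adjusted p = 0.0161), and the median of the list was 0.42. Lrg1, a secreted glycoprotein, and Bcl3, a co-regulator of NF-kappa B, had log2 differences of 0.57 ± 0.13 and 0.56 ± 0.16 (adjusted p = 0.0561 and 0.0994). Without KO replicates 1, 2 and 3 and WT replicates 1, 2 and 3 in turn, 6, 0, 0, 0, 0 and 2 of the 15 rose. DESeq2 called 4 of the 15 higher, limma-voom 1, the replicate block 2 and edgeR with no low-count filter 8. At an unadjusted p under 0.05 by edgeR, 7 of the 15 differed, all higher (14.6% of all genes in either direction). In 6 of the 15 every KO library exceeded every WT library (10.3% of all genes). Of 10 STAT5 targets, 0 passed by edgeR (3 higher and 1 lower at an unadjusted p under 0.05, 0 by DESeq2, 0 by limma-voom), with a median of 0.16. Bcl2, an inhibitor of cell death, had a log2 difference of −0.42 ± 0.13, and Tnfrsf4, a costimulatory receptor of T cells, one of 0.99 ± 0.35 (edgeR adjusted p = 0.133 and 0.198). Without KO replicate 1, 1 STAT5 target rose.

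**Figure D5:**
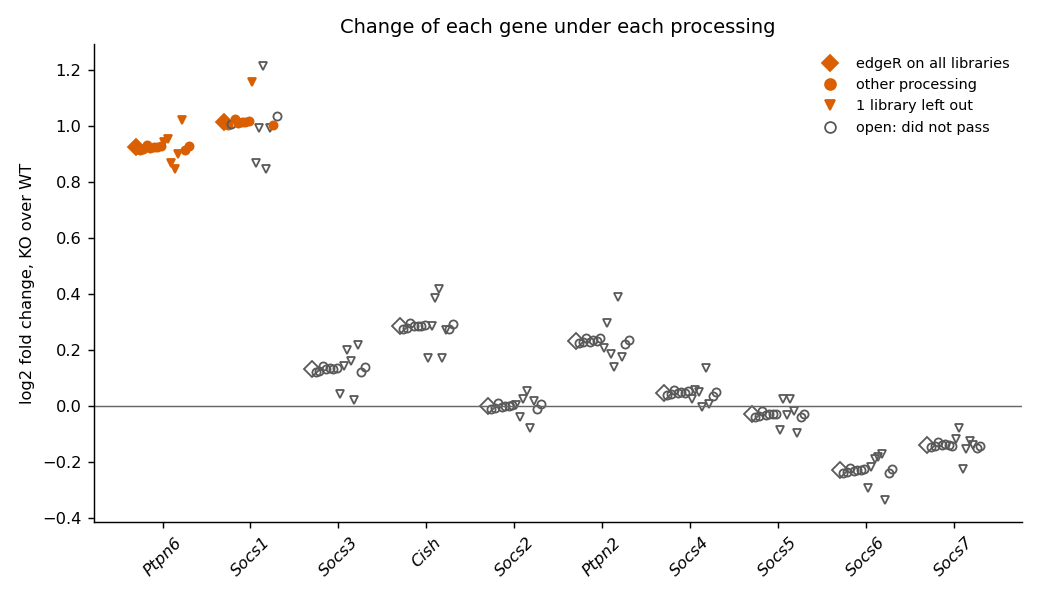
Log2 fold change of each gene, KO over WT, under edgeR with all libraries (diamonds), other processing (circles) and with 1 library left out (triangles). Filled symbols passed at an adjusted p under 0.05. Ptpn6 is filled throughout, and Socs1 turns open in 5 of 6 leave-outs, under limma-voom and under upper-quartile scaling.

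Some values carry a limit from the annotation. Antisense genes overlap 7.46% of the merged exon length of Cish (Gm17041) and 6.96% of that of Ptpn6 (Gm20531), and the strand setting of the counting is not given in the sources used here. Both antisense genes had 0 counts in all 6 libraries. A pseudogene on the other strand, Gm17040, overlaps a further 4.07% of Cish and had 7 counts in KO replicate 3 and in WT replicate 2.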

How the data were processed

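Whole-lung RNA of 6 libraries was analysed. The deposited values are raw read counts per Ensembl gene; per the labels' protocols, the authors mapped the reads with STAR 2.5 against mm10 (GRCm38) and made the counts with HTSeq 0.6.1. Its mode, its strand setting and the annotation release were not stated there. Symbols, coordinates and exon lengths came from GENCODE M21 by Ensembl identifier. Counts were fitted with edgeR 4.0.16 in R 4.3.3 (TMM, filterByExpr with a minimum count of 10, glmQLFit with robust=TRUE, group alone), as KO minus WT, with Benjamini-Hochberg adjustment over 15191 genes. The SE is |log2 fold change| over the root of F, and intervals use the t quantile of the fit. Tests were two-sided. RPKM is the CPM per kilobase. The procedure was also run on simulated counts, the outcome of which is not given here. No libraries were identical (chi-square per degree of freedom 14.7 to 51.8). The labels do not say that each library is 1 animal, so the spread behind a p-value may be technical. The members and lists were chosen with earlier results of these data known. All members are described, and of each list of signalling genes the 3 with the smallest p are named; genes with similar profiles were sought for Socs1, Socs3, Cish and Ptpn6 where mean log2 CPM was at least 3. Ptpn1, Ptpn11, Cd274, Ifnb1 and further called list genes were named after their values were seen. Alternatives were other scalings and filters, robust=FALSE, DESeq2 1.42.0, limma-voom 3.58.1, the replicate block and leaving out each library. The levels relative to pan-leukocyte genes, the ratios between members, the principal transcript length and the list counts with a library left out were added after the data had been seen. Results of some genes and of 1 gene list are not reported here.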

Additional observations from a re-analysis of the deposited data

How the results depend on the processing

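Of 150 refits of single members (10 genes, each under 15 other settings), 133 kept direction and call, 7 lost the call, all of them for Socs1, and 10 changed sign, all among Socs2, Socs4 and Socs5, whose log2 differences lie near 0. Of the members, 1 was called higher under upper-quartile scaling and 1 under limma-voom, and 1 to 2 with 1 library left out. The sign of Socs2 changed with total counts only (0.0086), limma-voom (0.0048) and the replicate block (0.0013), and over the leave-outs its log2 difference ran from −0.080 to 0.055, that of Socs4 from −0.0049 to 0.14 and that of Socs5 from −0.098 to 0.024. Over all genes, 170 were higher and 51 lower, beside 578 and 225 with no low-count filter, 354 and 233 by DESeq2, 309 and 96 with the replicate block, and 22 to 404 higher and 2 to 174 lower with 1 library left out. Without KO replicate 1 the count of higher genes was 404, and without KO replicates 2 and 3 and WT replicates 1 and 2 it was 23, 36, 28 and 22. The causes were not tested. The labels do not say whether equal replicate numbers mark pairs. Same-numbered libraries deviated from their group means with correlations across genes of 0.05, 0.02 and 0.03, beside −0.086 to 0.057 for unlike numbers. Not every library correlated best with its own number, and whether the numbers mark pairs was not settled. The replicate block changed the call of no member. With 3 libraries per group, exact permutation tests cannot go below 0.1.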

Other observations

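The 14 pan-leukocyte genes had a mean log2 CPM of 6.99 in KO replicate 1, the lowest of the KO libraries and above the 6.87 of WT replicate 3, the highest of the WT libraries, while their sum of 2619 CPM lay below the 2664 CPM of WT replicate 3. In KO replicate 1 Ptpn6 was at 71.4 CPM, between the 70.4 and 78.9 CPM of the other KO libraries, and Socs1 was at 17.4 CPM, the lowest of the KO libraries.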
